A study of Mus musculus with 12 samples.

Results

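The Wnt feedback genes are the genes that Wnt/β-catenin signaling itself turns on or relies on to limit its own strength, and 10 of them were followed here among the 24480 genes quantified: Notum, Dkk1, Axin2, Nkd1, Znrf3, Rnf43, Lef1, Tcf7, Tcf7l1 and Sp5. They were chosen by name around Notum because Notum had fallen upon overexpression of the Yes-associated protein (YAP), so the level of Notum in that experiment is given as a description without a test. The question was whether other β-catenin targets and Wnt inhibitors move with it. All libraries were made from total RNA of pluripotent mouse embryonic stem cells (ESCs), the E14Tg2a line grown without feeder cells in serum and leukemia inhibitory factor, and all cells were transfected transiently with Lipofectamine. In the first experiment, ESCs received siRNAs against mouse Yap1 (YAP KD) or scrambled siRNAs (CTR KD), and RNA was taken 2 days later (the time in the overexpression is not given in the sources used here). In the second, they received a pCAG plasmid encoding mouse YAP (YAP OE) or a control plasmid (CTR OE), which the sample labels give as encoding GFP and the study elsewhere as empty. Each of the 4 groups had 3 libraries, described as independent biological replicates, and the experiments shared no library. No selection of transfected cells was described, so each library averaged over the whole culture, and fewer cells of a type cannot be told apart from less RNA per cell.

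In the Wnt pathway, lipid-modified Wnt proteins leave the cell with the help of Porcn and Wls and bind Frizzled receptors with the co-receptors Lrp5 and Lrp6. They stop a cytoplasmic destruction complex from degrading β-catenin, which then acts on target genes through the DNA-binding factors Lef1, Tcf7 and Tcf7l1. The pathway restrains itself at each step. Notum removes the lipid from secreted Wnt proteins, Dkk1 blocks the co-receptors, Znrf3 and Rnf43 remove Frizzled receptors from the membrane, Nkd1 acts on Dishevelled and Axin2 is a scaffold of the destruction complex. In ESCs, Wnt signaling favors self-renewal, in good part by relieving the repression that Tcf7l1 exerts on pluripotency genes. YAP is a coactivator that reaches DNA through TEAD factors and is kept in check by the Hippo kinases.

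The libraries held between 4.29e+07 and 5.72e+07 expected counts. Expression is given as CPM, the expected counts of a gene relative to the TMM-scaled size of its library, with the mean ± SD of n = 3 libraries for a group. A gene was called where its Benjamini-Hochberg adjusted p, from edgeR over all genes tested in the experiment, was under 0.05. Yap1, on chromosome 9 (mm10, 7931999 to 8004638), had 125.4 ± 9.40 CPM in CTR KD and 56.7 ± 1.80 in YAP KD, which is -1.14 as a log2 fold change (SE 0.0568, adjusted p = 4.4e-05 by edgeR). It had 132.5 ± 2.02 CPM in CTR OE and 258.8 ± 16.6 in YAP OE (log2 fold change 0.97, SE 0.0470), where endogenous and plasmid transcripts were counted together. The 6 ESC markers Pou5f1, Sox2, Nanog, Zfp42, Utf1 and Dppa5a were all above 1 CPM in each group, and their sum lay between 4482 and 4931 CPM over the 12 libraries.

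Of the 10 feedback genes, 9 passed the filter on low counts in each experiment and were tested, and Dkk1 did not pass. In YAP KD, 1 of the 9 was called, against 5.49% of all genes tested. The called gene was Notum. In YAP OE, none of the 8 tested genes other than Notum was called by edgeR (0 of 8), against 2.13% of all genes, and DESeq2 also called 0. At an unadjusted edgeR p under 0.05 there were 0 of these 8 genes, against 13.1% of all genes in YAP OE. The sections that follow take the genes by their place in the pathway.

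**Figure D1:**
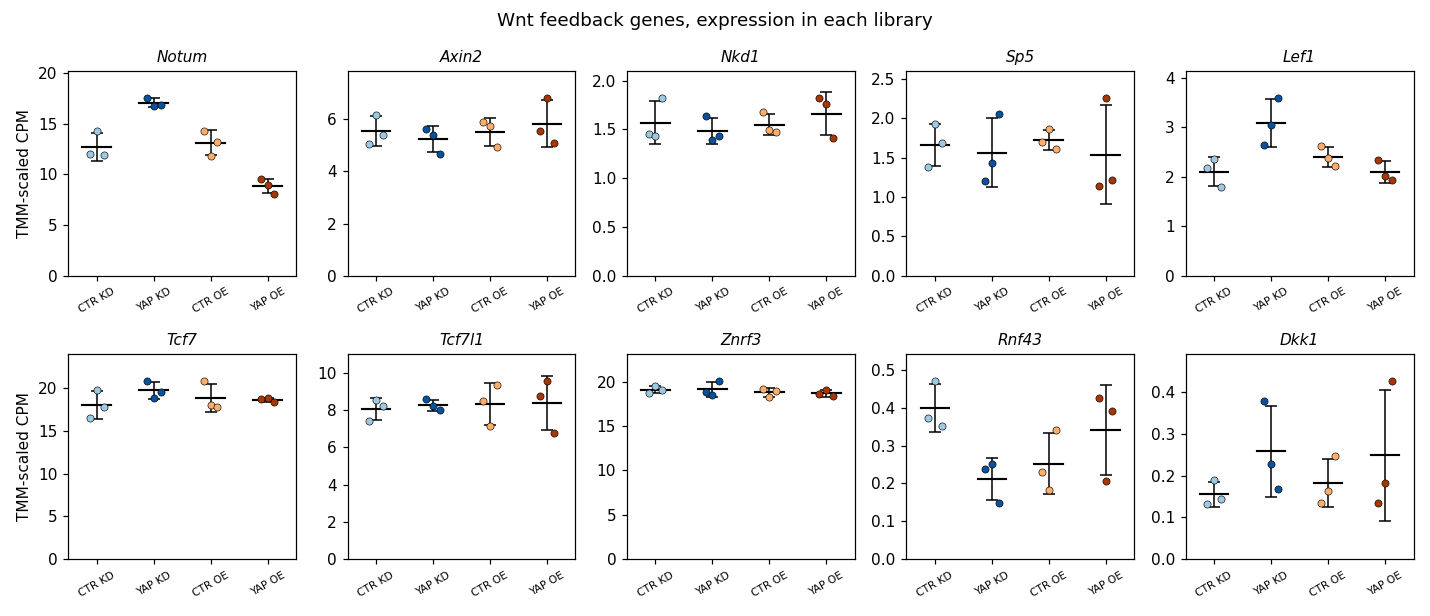
Expression of the 10 Wnt feedback genes as TMM-scaled CPM (vertical axes, from 0, with a scale for each gene) in every library of the 4 groups (horizontal axes). Points are libraries, the horizontal bar is the mean and the error bar is the SD of 3 libraries. Notum lies between 16.8 and 17.6 CPM in YAP KD, above all 3 CTR KD libraries, and between 8.11 and 9.54 CPM in YAP OE, below all 3 CTR OE libraries.

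Among the secreted inhibitors, Notum was upregulated when YAP was reduced. The gene, on chromosome 11 (mm10, 120653788 to 120661193), had 11.96, 14.2 and 11.9 CPM in the CTR KD libraries and 17.6, 16.8 and 16.8 CPM in the YAP KD libraries. All YAP KD libraries were above all CTR KD libraries. The log2 fold change was 0.43 (95% interval 0.26 to 0.59, SE 0.0746), a 1.34-fold difference, with an edgeR adjusted p of 0.0113 over all genes. The call was lost without CTR KD replicate 3 (log2 fold change 0.38, adjusted p = 0.0610) or without YAP KD replicate 1 (0.40, adjusted p = 0.0577), and on log2(TPM + 1) the difference was 0.34 (adjusted p = 0.368).

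In the overexpression, which chose the gene, Notum had 14.3, 11.8 and 13.2 CPM in CTR OE and 9.54, 8.94 and 8.11 CPM in YAP OE. The YAP OE libraries were all below the CTR OE libraries, with a log2 fold change of -0.57 (SE 0.0790), or 0.675-fold. The controls of the experiments lay close together, at 12.7 ± 1.34 and 13.1 ± 1.22 CPM. Notum therefore stood above its control in the knockdown and below its control in the overexpression.

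Dkk1, the secreted antagonist that binds the co-receptors, was among the lowest. On chromosome 19 (mm10, 30545876 to 30549496), it had between 6 and 24 counts in a library. Its level was 0.155 ± 0.0298 CPM in CTR KD, 0.258 ± 0.109 in YAP KD, 0.182 ± 0.0578 in CTR OE and 0.249 ± 0.157 in YAP OE, and the ranges of YAP and CTR libraries overlapped in both experiments. For comparison, 3 counts, the limit set by a count of 0, were worth between 0.0524 and 0.0699 CPM in these libraries, which covers counting error only.

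Axin2, the scaffold of the destruction complex that is widely read as a target of Wnt signaling, did not pass the test in either experiment. The gene, on chromosome 11 (mm10, 108917828 to 108950783), had 5.05, 6.15 and 5.40 CPM in CTR KD and 5.62, 5.39 and 4.66 CPM in YAP KD. In the overexpression it had 5.89, 5.73 and 4.91 CPM in CTR OE and 5.55, 6.82 and 5.08 CPM in YAP OE. The groups overlapped in both experiments. The log2 fold change was -0.088 in YAP KD (95% interval -0.32 to 0.14, adjusted p = 0.711) and 0.071 in YAP OE (-0.16 to 0.30, adjusted p = 0.857).

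Nkd1, which binds Dishevelled and dampens the signal, lies on chromosome 8 (mm10, 88521342 to 88594887) and had between 61 and 94 counts in a library. Its level was 1.57 ± 0.223 CPM in CTR KD and 1.49 ± 0.132 in YAP KD, and 1.55 ± 0.112 in CTR OE and 1.66 ± 0.223 in YAP OE. The log2 fold changes were -0.077 in YAP KD (95% interval -0.41 to 0.26) and 0.094 in YAP OE (-0.22 to 0.41), with overlapping libraries and neither past the test.

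The membrane ubiquitin ligases differed greatly in level. Znrf3, on chromosome 11 (mm10, 5276329 to 5444847), had group means between 18.7 and 19.2 CPM. Its log2 fold change was 0.0066 in YAP KD (95% interval -0.11 to 0.12) and -0.012 in YAP OE (-0.12 to 0.092), the narrowest intervals of the tested feedback genes.

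Its paralog Rnf43, also on chromosome 11 (mm10, 87663087 to 87735539), had between 8 and 25 counts in a library. It had 0.373, 0.472 and 0.353 CPM in CTR KD and 0.237, 0.250 and 0.149 CPM in YAP KD. The YAP KD libraries were all below the CTR KD libraries, with a log2 fold change of -0.94 (95% interval -1.60 to -0.27, SE 0.297), but the difference did not pass the test over all genes (edgeR adjusted p = 0.110), and Rnf43 reached the minimum of the filter in 3 of 3 CTR KD and 2 of 3 YAP KD libraries. In the overexpression Rnf43 had 0.232, 0.184 and 0.341 CPM in CTR OE and 0.426, 0.206 and 0.392 CPM in YAP OE, and the groups overlapped (log2 fold change 0.45, adjusted p = 0.633). The mean of CTR OE, 0.252 CPM, was closer to YAP KD than to CTR KD. The span of Rnf43 overlaps 2 other annotated genes, Gm25968 and 1110028F11Rik, and the strand setting of the counting is not given in the sources used here.

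Among the nuclear factors, Lef1 lay farthest from its control. Lef1, an activating partner of β-catenin and itself a Wnt target in many tissues, lies on chromosome 3 (mm10, 131110297 to 131224357). It had 2.17, 2.36 and 1.78 CPM in CTR KD and 2.63, 3.05 and 3.60 CPM in YAP KD. All YAP KD libraries were above all CTR KD libraries, with a log2 fold change of 0.56 (95% interval 0.23 to 0.90, SE 0.149). The edgeR adjusted p was 0.0605, so Lef1 was not called. DESeq2, the fit without a filter, the fit over all 12 libraries and the fit without CTR KD replicate 2 did call it (lowest adjusted p = 0.0186).

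In the overexpression Lef1 had 2.62, 2.37 and 2.22 CPM in CTR OE and 2.34, 2.01 and 1.94 CPM in YAP OE. The groups overlapped, with a log2 fold change of -0.195 (95% interval -0.46 to 0.072, adjusted p = 0.560). The difference between the responses was tested in a fit over all 12 libraries. The response of Lef1 to overexpression was lower than its response to knockdown by 0.76 on the log2 scale (log2 difference -0.76, 95% interval -1.18 to -0.34, SE 0.197, edgeR adjusted p = 0.0242), against 8.8% of all genes called in that fit. All 10 feedback genes passed the filter in that fit, and of the 9 other than Notum, whose difference was not tested, Lef1 was the 1 called. The adjusted p ranged from 0.0147 to 0.342 over the alternatives, and the call was lost without any of CTR KD replicate 3, YAP KD replicate 3, CTR OE replicate 1, YAP OE replicate 2 or YAP OE replicate 3. The mean length of Lef1 transcripts, weighted over 3 annotated transcripts, varied from 2954 to 3386 bases over the libraries, and with the effective length as an offset Lef1 stayed called in this test.

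Tcf7, the other activating partner, was among the most highly expressed of the feedback genes. On chromosome 11 (mm10, 52246527 to 52283383), it had 18.03 ± 1.65 CPM in CTR KD, 19.8 ± 1.04 in YAP KD, 18.9 ± 1.65 in CTR OE and 18.7 ± 0.230 in YAP OE. The log2 fold changes were 0.13 (95% interval -0.028 to 0.29) and -0.018 (-0.15 to 0.11), and libraries overlapped in both experiments. Tcf7l1, the repressor among these factors in ESCs, lies on chromosome 6 (mm10, 72626371 to 72789045) and had 8.06 ± 0.581 CPM in CTR KD, 8.25 ± 0.294 in YAP KD, 8.32 ± 1.11 in CTR OE and 8.36 ± 1.45 in YAP OE. Its log2 fold changes were 0.032 (95% interval -0.13 to 0.20) in YAP KD and -0.0044 (-0.25 to 0.24) in YAP OE. Tcf7 overlaps Skp1 and Tcf7l1 overlaps 4 predicted genes in the annotation.

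Sp5, a zinc-finger factor that is a direct target of β-catenin in ESCs and curbs other Wnt targets, lies on chromosome 2 (mm10, 70474923 to 70477726). It had 1.38, 1.92 and 1.68 CPM in CTR KD and 1.21, 1.43 and 2.05 CPM in YAP KD. It had 1.70, 1.86 and 1.61 CPM in CTR OE and 1.14, 2.26 and 1.21 CPM in YAP OE. The spread within the YAP groups exceeded the difference from the controls, with log2 fold changes of -0.070 (95% interval -0.53 to 0.39) and -0.19 (-0.64 to 0.26). Without YAP OE replicate 2 the latter was -0.55, still not called.

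The promoters were read for letters that TCF/LEF factors bind (CTTTGA or CTTTGT) and that TEAD factors bind (GGAATG), on both strands, in the RefSeq windows of GRCm38.p6 (the mm10 assembly) from 250 bases before to 50 bases after each start. Windows for 8 of the 10 feedback genes, 13 windows in all, were read, and those of Notum and Znrf3 were not analysed here. TCF/LEF letters stood in 4 of the 13 windows, those of Sp5, Lef1 (1 of its 4 windows), Tcf7l1 and Dkk1, and TEAD letters in 0 of the 13. Of all 32851 windows of this length, 31.2% held the TCF/LEF letters and 14.7% the TEAD letters. The Sp5 window is shown because it held the most TCF/LEF matches of the feedback genes, 5, while Sp5 did not pass the test in either experiment. It lies at chr2:70474673-70474972 on the plus strand, with the matches in capitals (positions 30, 39, 47, 147 and 292 from its first base, the match at position 30 on the opposite strand).
Sp5: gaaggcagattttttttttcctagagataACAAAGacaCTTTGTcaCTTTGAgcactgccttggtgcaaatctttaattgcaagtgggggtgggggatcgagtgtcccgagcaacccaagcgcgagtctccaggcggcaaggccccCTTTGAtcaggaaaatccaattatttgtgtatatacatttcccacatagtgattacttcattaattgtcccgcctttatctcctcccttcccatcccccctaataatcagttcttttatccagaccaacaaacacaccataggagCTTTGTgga
A match is a run of letters and not a measured binding site, and its absence says only that the letters are not in the window.

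**Figure D2:**
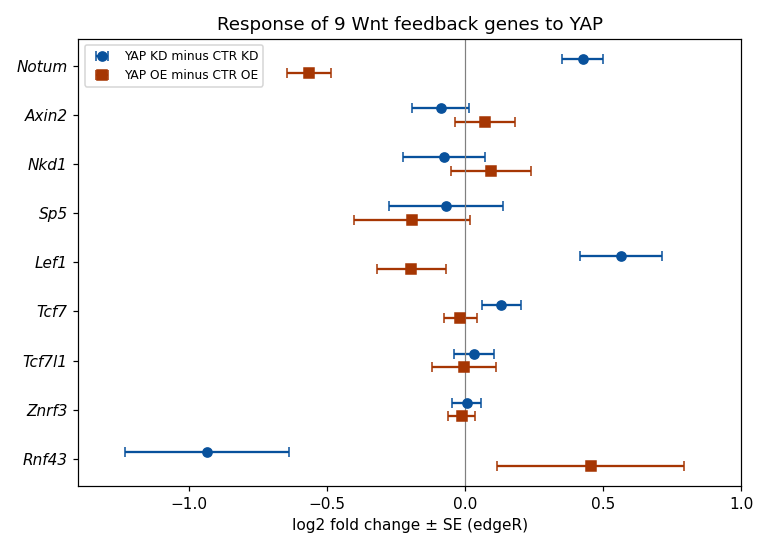
Log2 fold change (horizontal axis) of the 9 tested Wnt feedback genes (vertical axis) in YAP KD against CTR KD (circles) and in YAP OE against CTR OE (squares), with error bars of 1 SE from edgeR. Notum, Lef1 and Rnf43 lie farthest from 0 in the knockdown (0.43, 0.56 and -0.94), and Axin2, Nkd1, Tcf7l1 and Znrf3 lie within 0.1 of 0 in both experiments.

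The feedback genes lay on both sides of their controls, from -0.94 (Rnf43) to 0.56 (Lef1) on the log2 scale in YAP KD. The median log2 fold change of the 9 tested genes was 0.0066 there, beside 0.0058 over all genes tested. In YAP OE the median of the 8 tested genes other than Notum was -0.0080, with a range from -0.195 (Lef1) to 0.45 (Rnf43), beside a median of -0.0025 over all genes. In YAP KD, 3 of the 9 tested genes (Notum, Lef1 and Rnf43) had libraries that did not overlap between the groups, against 25.7% of all genes tested. In YAP OE this held for Notum, which was chosen for it, and for no other feedback gene, against 18.2% of all genes.

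Levels between genes were compared as CPM per kilobase of effective length. In CTR KD, Tcf7 (7.16 ± 0.670 CPM per kilobase) and Notum (6.88 ± 0.735) were highest, and they differed by less than their SDs. Tcf7l1 (3.00 ± 0.219) and Znrf3 (2.80 ± 0.0584) followed and were likewise within their SDs, and then Axin2 (1.35 ± 0.138). Sp5 (0.865 ± 0.142) and Lef1 (0.714 ± 0.102) did not differ beyond their SDs. Nkd1 had 0.379 ± 0.0536, and Rnf43 (0.0965 ± 0.0154) and Dkk1 (0.0749 ± 0.0144) were lowest and within their SDs. In YAP KD, Notum had 9.26 ± 0.268 CPM per kilobase and Tcf7 7.85 ± 0.425, so that Notum was first by more than the SDs, and in YAP OE Notum had 4.81 ± 0.394 against 7.41 ± 0.0841 for Tcf7.

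The rest of the pathway was described through 11 lists of genes by role, holding 118 genes in the files. In YAP KD, 10 of 95 tested genes were called, 6 up and 4 down, and in YAP OE 5 of 97 were called, all up, including Cdx2, which passed the filter on low counts only through YAP OE. As shares these are to be read against the 5.49% and 2.13% of all genes called. The median log2 fold change over the tested genes of these lists was -0.015 in YAP KD and 0.012 in YAP OE.

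Both genes of the list for Wnt acylation and secretion were called in YAP KD, in opposite directions, and 1 of them was called in YAP OE. Over all genes, 5.49% and 2.13% were called. Wls, the carrier that escorts Wnt proteins to the cell surface (chromosome 3, mm10, 159839650 to 159938666), had 16.0, 17.6 and 17.1 CPM in CTR KD and 10.5, 10.1 and 9.57 CPM in YAP KD. It had 15.4, 16.9 and 16.9 CPM in CTR OE and 21.3, 21.7 and 22.5 CPM in YAP OE. Neither experiment had overlapping libraries. Wls fell by 0.75 on the log2 scale in YAP KD (SE 0.0622, adjusted p = 0.000221), the lowest adjusted p of the pathway genes called there, and rose by 0.41 in YAP OE (SE 0.0536, adjusted p = 0.000574). It was called in YAP KD under all 11 alternatives and without each of the 6 libraries. Its call in YAP OE was lost with limma-trend on both TPM scales (highest adjusted p = 0.261).

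Porcn, the acyltransferase that attaches the lipid to Wnt proteins (chromosome X, mm10, 8193846 to 8206548), had 12.5, 12.7 and 13.2 CPM in CTR KD and 15.4, 16.0 and 15.8 CPM in YAP KD. The YAP KD libraries were all higher, with a log2 fold change of 0.30 (SE 0.0532, adjusted p = 0.0111). It had 11.6 ± 1.02 CPM in CTR OE and 10.2 ± 0.117 in YAP OE (log2 fold change -0.19, adjusted p = 0.213). Without YAP KD replicate 2 or replicate 3 the call of Porcn in the knockdown was lost (highest adjusted p = 0.0664).

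Of 19 Wnt ligand genes, 12 were tested, and in YAP KD 1 was called up and 1 down, against 5.49% of all genes called. In YAP OE 1 was called, against 2.13%. Wnt7b (chromosome 15, mm10, 85535437 to 85581821) had 11.1, 12.5 and 10.6 CPM in CTR KD and 7.52, 6.76 and 8.28 CPM in YAP KD, and its log2 fold change was -0.59 (SE 0.0927, adjusted p = 0.00675). It had 12.1, 11.5 and 10.4 CPM in CTR OE and 14.7, 16.0 and 16.4 CPM in YAP OE, and its log2 fold change was 0.47 (SE 0.0674, adjusted p = 0.00118). Like Wls, Wnt7b had no overlap between groups in either experiment and was called in opposite directions. Its knockdown call was lost with limma-trend on both TPM scales and with the replicate number as an edgeR block (highest adjusted p = 0.186). Its overexpression call was lost with limma-trend on both TPM scales (highest adjusted p = 0.174).

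Wnt4 (chromosome 4, mm10, 137277635 to 137299501) was upregulated in YAP KD, from 0.921, 1.06 and 0.955 CPM in CTR KD to 1.38, 2.07 and 1.75 CPM (log2 fold change 0.83, SE 0.176, adjusted p = 0.0262). In the overexpression it had 1.94 ± 0.190 CPM in CTR OE and 2.02 ± 0.192 in YAP OE (log2 fold change 0.062, adjusted p = 0.910), and both of these means lay above the 1.73 CPM of YAP KD. The call in YAP KD was lost without CTR KD replicate 1 or 3 and without YAP KD replicate 2 or 3 (highest adjusted p = 0.115).

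**Figure D3:**
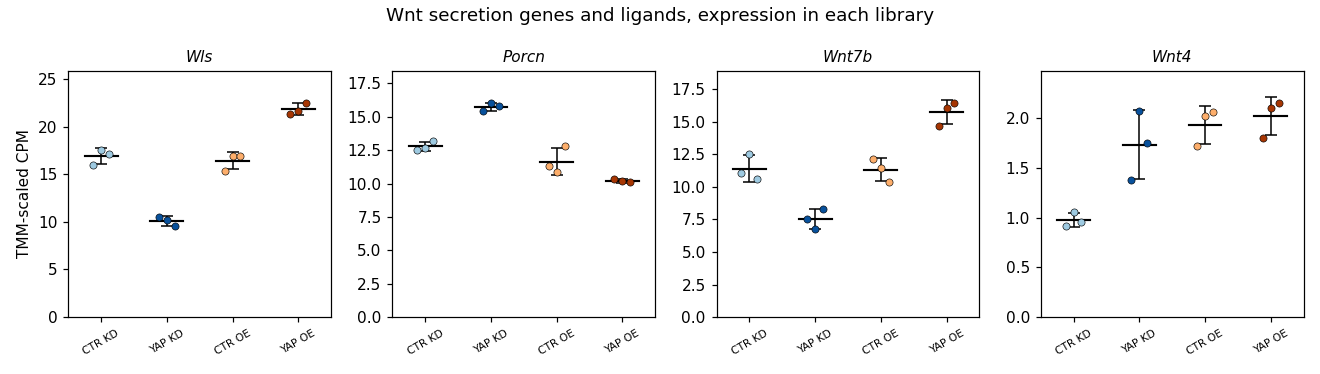
Expression of Wls, Porcn, Wnt7b and Wnt4 as TMM-scaled CPM (vertical axes, from 0) in every library of the 4 groups (horizontal axes), with the mean and SD of 3 libraries. Wls and Wnt7b are lowest in YAP KD and highest in YAP OE, Porcn is highest in YAP KD, and Wnt4 is lowest in CTR KD.

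At the receptor level, 1 of 15 tested genes was called in YAP KD, against 5.49% of all genes, and 0 of 15 in YAP OE, against 2.13%. Fzd10, a Frizzled receptor (chromosome 5, mm10, 128601106 to 128604093), had 12.3, 13.8 and 12.6 CPM in CTR KD and 16.6, 16.2 and 15.6 CPM in YAP KD (log2 fold change 0.32, SE 0.0605, adjusted p = 0.0151), and 12.4 ± 0.434 and 12.1 ± 0.935 CPM in CTR OE and YAP OE. Its call was lost without CTR KD replicate 3, YAP KD replicate 1 or YAP KD replicate 2 (highest adjusted p = 0.0769).

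Of the R-spondin and Lgr genes, 1 of 3 tested was called in YAP KD, against 5.49% of all genes, and 0 of 4 in YAP OE, against 2.13%. The called gene was Lgr4, the R-spondin receptor through which Znrf3 and Rnf43 are neutralized (chromosome 2, mm10, 109917647 to 110014257). It had 130.2, 130.1 and 133.2 CPM in CTR KD and 152.0, 156.2 and 152.0 CPM in YAP KD (log2 fold change 0.23, SE 0.0375, adjusted p = 0.00841), and lost the call without YAP KD replicate 2 (adjusted p = 0.0600). In the overexpression it had 127.1 ± 0.430 CPM in CTR OE and 120.1 ± 4.38 in YAP OE (log2 fold change -0.082, adjusted p = 0.389). Windows of 10 of the 12 pathway genes called in either experiment were read for motif letters. The 10 genes had 12 windows, and TEAD letters stood in 1 of them, against 14.7% of all windows of this length. A match is not a measured binding site. The 1 window was that of Lgr4. Its window is shown for that reason, at chr2:109917397-109917696 on the plus strand, with the 2 matches (positions 73 and 93 from its first base, both on the opposite strand) in capitals.
Lgr4: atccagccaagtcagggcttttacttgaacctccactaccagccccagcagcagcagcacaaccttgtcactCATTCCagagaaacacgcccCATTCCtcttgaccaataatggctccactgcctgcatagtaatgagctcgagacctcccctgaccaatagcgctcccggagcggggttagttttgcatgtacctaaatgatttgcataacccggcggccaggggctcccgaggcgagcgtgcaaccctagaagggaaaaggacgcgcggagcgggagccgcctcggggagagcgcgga

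Glypicans are heparan sulfate proteoglycans that hold Wnt proteins at the cell surface and which Notum binds. In YAP KD 1 of 5 tested glypicans, Gpc3, was called, against 5.49% of all genes. Gpc3 (chromosome X, mm10, 52272426 to 52613974) had 59.5 ± 2.91 CPM in CTR KD and 48.0 ± 2.35 in YAP KD (log2 fold change -0.31, SE 0.0512, adjusted p = 0.00867), and 51.5 ± 1.13 and 55.4 ± 3.51 CPM in CTR OE and YAP OE (0.11, adjusted p = 0.312). Its call in the knockdown was lost without CTR KD replicate 3 or YAP KD replicate 2 (highest adjusted p = 0.0573). No glypican was called in YAP OE, against 2.13% of all genes.

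The other secreted or membrane inhibitors held no called gene among 8 tested in either experiment, against 5.49% and 2.13% of all genes. In YAP KD, 7 of the 8 had a negative log2 fold change, against 7035 of the 14606 genes tested. At an unadjusted edgeR p under 0.05 there were 2 of the 8 in YAP KD, against 19.6% of all genes, and 0 in YAP OE, against 13.1%. Sfrp1, a secreted Frizzled decoy and the highest of them per length in CTR KD, had 45.3 ± 2.60 CPM in CTR KD and 40.4 ± 0.979 in YAP KD (log2 fold change -0.16, SE 0.0503, adjusted p = 0.102).

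None of 11 Dishevelled and cytoplasmic regulators was called by edgeR, with log2 fold changes from -0.16 to 0.24 in YAP KD and from -0.16 to 0.10 in YAP OE, and 1 in YAP KD and 2 in YAP OE had an unadjusted p under 0.05 (19.6% and 13.1% of all genes). The highest of them per length in CTR KD, Tnks2, a tankyrase that destabilizes Axin proteins, had log2 fold changes of 0.014 and 0.012. None of 10 genes of the destruction complex and β-catenin was called either, with 0 at an unadjusted edgeR p under 0.05 in each experiment, and with 5.49% and 2.13% of all genes called a count of 0 is near the background. Ctnnb1, encoding β-catenin, had 1076 ± 12.7 CPM in CTR KD and 1062 ± 27.4 in YAP KD, and 1038 ± 3.62 in CTR OE and 1048 ± 43.96 in YAP OE. Its log2 fold changes were -0.017 (95% interval -0.10 to 0.069) and 0.015 (-0.084 to 0.11).

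In the nucleus, 1 of 12 nuclear partners was called in YAP KD, against 5.49% of all genes, and 0 of 12 in YAP OE, against 2.13%. The called gene was Tle4, a Groucho-type corepressor of TCF factors (chromosome 19, mm10, 14448072 to 14598183). It had 130.3 ± 2.16 CPM in CTR KD and 149.8 ± 4.17 in YAP KD (log2 fold change 0.20, SE 0.0397, adjusted p = 0.0184), and 140.2 ± 0.322 and 133.5 ± 6.49 CPM in CTR OE and YAP OE (-0.071, adjusted p = 0.512). Only the fits without CTR KD replicate 2 and without YAP KD replicate 3 kept the knockdown call among those that left out a library.

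Of the other β-catenin target genes, Ascl2 and Id2 were called in YAP OE, where 2.13% of all genes were called. In YAP KD 2 of 11 were called, against 5.49% of all genes. Cdx2 passed the filter on low counts only through YAP OE, so its call there is not set against the share of all genes. Id2, an inhibitor of basic helix-loop-helix factors (chromosome 12, mm10, 25093799 to 25096092), rose in both experiments. It had 6.78 ± 0.311 CPM in CTR KD and 9.51 ± 0.506 in YAP KD (log2 fold change 0.49, SE 0.0722, adjusted p = 0.00527), and 10.01 ± 0.304 in CTR OE and 12.1 ± 0.237 in YAP OE (0.27, SE 0.0590, adjusted p = 0.0222). The overexpression call was lost without YAP OE replicate 1 and without each CTR OE library in turn.

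Cdx2, a caudal homeobox factor that also specifies trophoblast (chromosome 5, mm10, 147300900 to 147307249), was low in all groups. It had 6, 5 and 12 counts in the CTR OE libraries and 33, 28 and 34 in the YAP OE libraries, or 0.116, 0.102 and 0.227 CPM against 0.639, 0.640 and 0.606 CPM (log2 fold change 2.05, SE 0.303). Cdx2 passed the filter on low counts through the YAP OE libraries, with 1 of 3 CTR OE and 3 of 3 YAP OE libraries over the minimum, so its call in the filtered fit depended on the group in which it was high. The edgeR fit without that filter gave an adjusted p of 1.4e-05. It did not pass the filter in the knockdown, where both groups had about 0.15 CPM (0.154 ± 0.0717 and 0.157 ± 0.0130). Ascl2, a basic helix-loop-helix factor and Wnt target of intestinal stem cells that is also active in trophoblast (chromosome 7, mm10, 142966822 to 142969264), had 1.77 ± 0.110 CPM in CTR OE and 2.63 ± 0.424 in YAP OE (log2 fold change 0.56, SE 0.137, adjusted p = 0.0459). Leaving out any library but YAP OE replicate 3 ended the call of Ascl2, and it was also lost with DESeq2, limma-voom, the fit over all 12 libraries and both TPM scales (highest adjusted p = 0.243).

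Tnfrsf19, a receptor of the tumor necrosis factor family (chromosome 14, mm10, 60963834 to 61046855), had 12.5 ± 0.469 CPM in CTR KD and 10.2 ± 0.246 in YAP KD (log2 fold change -0.29, SE 0.0592, adjusted p = 0.0234), and 12.9 ± 0.727 and 14.8 ± 0.805 CPM in CTR OE and YAP OE (0.20, adjusted p = 0.133). Its knockdown call held without CTR KD replicate 2 and was lost without each of the other 5 libraries.

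None of the 6 genes repressed by Tcf7l1 in ESCs was called in either experiment, against 5.49% and 2.13% of all genes. At an unadjusted edgeR p under 0.05 there were 5 of the 6 in YAP KD, against 19.6% of all genes, and 2 of the 6 in YAP OE, against 13.1%, and in YAP KD 3 of the 6 had a positive and 3 a negative log2 fold change. Nanog, the core pluripotency factor of this list, had 420.0 ± 14.01 CPM in CTR KD and 383.0 ± 4.45 in YAP KD (log2 fold change -0.13, SE 0.0394, adjusted p = 0.0959), and 388.7 ± 9.77 and 399.4 ± 11.2 CPM in CTR OE and YAP OE.

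**Figure D4:**
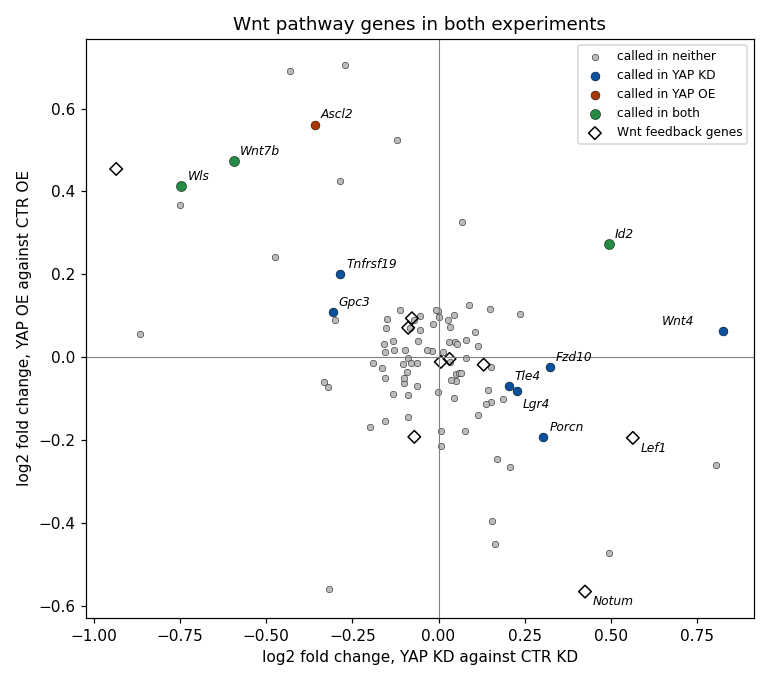
Log2 fold change in YAP KD against CTR KD (horizontal axis) and in YAP OE against CTR OE (vertical axis) for 95 other Wnt pathway genes tested in both experiments (circles) and the 9 tested Wnt feedback genes (open diamonds). Filled colors mark genes called in YAP KD (7), in YAP OE (1) or in both (3), and Notum lies to the lower right, with a positive value in the knockdown and a negative value in the overexpression, opposite to Wls and Wnt7b.

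Markers of other cell types were read in the same libraries. The summed level of 6 trophoblast markers (Cdx2, Elf5, Gata3, Eomes, Krt7 and Tfap2c) was between 58.8 and 65.7 CPM in CTR KD and between 80.1 and 89.7 CPM in YAP KD. The genes of the list did not move together in the knockdown. Tfap2c and Krt7 rose without overlap (edgeR adjusted p = 0.00217 and 0.0603), as 25.7% of all genes tested had no overlap. Eomes was 1.34 CPM in CTR KD and 1.06 in YAP KD, with overlap, and Cdx2, Elf5 and Gata3 overlapped. In the overexpression the sums overlapped, between 58.0 and 62.3 CPM in CTR OE and between 54.5 and 61.2 CPM in YAP OE. There too the genes of the list did not move together. Tfap2c had 53.3 ± 2.55 CPM in CTR OE and 47.7 ± 1.85 in YAP OE (adjusted p = 0.0935), while Gata3 was 0.285 ± 0.0980 CPM in CTR OE and 1.04 ± 0.162 in YAP OE (log2 fold change 1.84, adjusted p = 0.000886) and Cdx2 was also higher, as given above. Eomes had 1.26 ± 0.237 and 1.85 ± 0.144 CPM, with no overlap between the libraries (adjusted p = 0.0949), and Krt7 and Elf5 overlapped. Most of the sum was Tfap2c, which ESCs also express, with means of 57.5 CPM in CTR KD and 79.5 in YAP KD (adjusted p = 0.00217), while 3 of the 6 reached a mean of 1 CPM in CTR KD, YAP KD and CTR OE and 4 did in YAP OE. The lineage-defining markers Cdx2 and Elf5 stayed below 1 CPM in each group. The part of these cells or of Tfap2c in the change of Notum was not tested.

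The other marker lists were low. The sums over 6 primitive endoderm markers lay between 5.82 and 8.35 CPM, over 6 primitive streak and mesoderm markers between 1.78 and 3.34 CPM and over 7 fibroblast markers between 1.89 and 3.18 CPM. The primitive endoderm sum was between 7.59 and 8.35 CPM in YAP OE, above the CTR OE range of 5.82 to 7.20, and the streak sum was between 2.90 and 3.34 CPM in YAP OE, above 2.16 to 2.75 in CTR OE. The genes within these lists did not move together. Libraries did not overlap for 18.2% of all genes tested in YAP OE. Dab2 rose without overlap, from a mean of 2.66 CPM in CTR OE to 4.11 in YAP OE (edgeR adjusted p = 0.00645). Gata4 was lower without overlap (1.802 and 1.494 CPM, edgeR adjusted p = 0.431), and Gata6, Sox17, Pdgfra and Foxa2 overlapped. In the streak list, Eomes (given above), T (edgeR adjusted p = 0.294) and Evx1 were higher without overlap. Evx1 had between 5 and 10 counts in an overexpression library and did not pass the filter. Gsc was lower without overlap (0.333 CPM in CTR OE and 0.243 in YAP OE, edgeR adjusted p = 0.576), and Mixl1 and Mesp1 overlapped. In the knockdown the streak and primitive endoderm ranges overlapped. The fibroblast sum was between 1.89 and 2.22 CPM in CTR KD and between 2.44 and 3.18 CPM in YAP KD. Of its genes, Col1a2 rose without overlap (0.449 to 0.745 CPM, edgeR adjusted p = 0.122), and 25.7% of all genes tested did not overlap. Postn also rose without overlap (0.0209 to 0.0927 CPM) but did not pass the filter. Col1a1 rose with overlap (0.235 to 0.528, adjusted p = 0.158). Col3a1 was lower with overlap (0.299 to 0.262, adjusted p = 0.771). Thy1 (0.978 to 1.05, adjusted p = 0.796) and Dcn overlapped. The fibroblast marker Lum was at 0 in both control groups and had 1 count in 1 library of each YAP group. Their part in the results was not tested.

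The genes whose pattern was most like that of Notum were ranked by the correlation of log2 CPM over the 12 libraries, with each experiment centered on its mean, among genes averaging 50 or more expected counts. The highest were Hsd17b14 (Pearson r = 0.967), Lrrc15 (0.953), Bcas3 (0.949), Rest (0.946) and Isyna1 (0.938). The points share the transfections and library scaling of each group, and r is a description. They include the overexpression libraries, in which the level of Notum chose it. Hsd17b14, a hydroxysteroid dehydrogenase, had group means of 29.2 CPM in CTR KD, 32.5 in YAP KD, 28.9 in CTR OE and 25.4 in YAP OE, so that its log2 fold changes of 0.16 and -0.19 were smaller than those of Notum. Of the feedback genes, Lef1 ranked 452 (r = 0.737) and Tcf7 ranked 1429 (r = 0.564) among the 12396 genes compared. Axin2 had r = -0.099 and Nkd1 r = -0.18, while Rnf43 and Dkk1 were below the count minimum.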

How the data were processed

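Total RNA from 12 ESC libraries was sequenced. According to the study's methods, the authors mapped reads with STAR to mm10 and quantified RefSeq curated transcripts with RSEM (versions and strand setting are not given in the sources used here). They deposited expected counts, which are estimated, TPM and gene lengths (abundance-weighted mean and effective) for each library. TPM values deposited by the authors were used in alternatives only. Coordinates and promoter windows are those of RefSeq for GRCm38.p6.

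Expected counts were rounded. Each experiment was fitted on its 6 libraries with edgeR 4.0.16 (R 4.3.3; filterByExpr, TMM, two-sided quasi-likelihood F test), p-values were adjusted over all genes kept by the Benjamini-Hochberg method, and genes with an adjusted p under 0.05 were called. Differences between responses were tested as an interaction over 12 libraries. SE is the absolute log2 fold change divided by the square root of F. CPM values were scaled by TMM over the 12 libraries. No pair of replicates agreed within sampling noise (chi-square divided by its degrees of freedom was 3.54 to 25.7), and each library counted as a sample. Scripts were tested on simulated data. A limit of 3 counts was taken for a count of 0.

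The members, gene lists and tests were chosen with earlier results of these data known. Genes were named by a rule: the 10 feedback genes, Yap1, each pathway gene called in at least 1 experiment, the highest gene per length of a list without calls, and the 5 genes most like Notum. Sp8, Nr5a2 and the markers with values were named beyond it. Tmem131l was listed but not analysed here. Alternatives were 2 other scalings, 2 other filters, DESeq2 1.42.0, limma-voom and limma-trend (limma 3.58.1) on log2(TPM + 1) and log2(TPM + 0.1), the replicate number as a block, effective length as an offset, 1 fit over all 12 libraries, and leaving out each library.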

Additional observations from a re-analysis of the deposited data

Results flagged for a closer look

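These results stood out because the response to YAP overexpression minus the response to YAP knockdown, as a log2 difference tested over all 12 libraries, passed the edgeR test (adjusted p under 0.05), as it did for 8.8% of all genes. Among the feedback genes the difference was -0.76 for Lef1 (adjusted p = 0.0242).

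Among the pathway genes the difference was positive, the response to overexpression being higher, for Wls (1.16, adjusted p = 4.22e-07), Wnt7b (1.07, adjusted p = 5.95e-05) and Ascl2 (0.92, adjusted p = 0.0148). The difference of Cdx2 was 2.04 and is given as a value, because Cdx2 passed the filter on low counts through the YAP OE libraries in which it was high. It was also positive for Tnfrsf19 (0.49, adjusted p = 0.0018) and Gpc3 (0.42, adjusted p = 0.00201). The difference was negative for Wnt4 (-0.76, adjusted p = 0.0387), Porcn (-0.49, adjusted p = 0.0018), Fzd10 (-0.34, adjusted p = 0.025), Lgr4 (-0.31, adjusted p = 0.0011) and Tle4 (-0.27, adjusted p = 0.00618). The difference of Sp8, a zinc-finger factor related to Sp5, was -0.97 (adjusted p = 0.00668), and that of Nr5a2, a nuclear receptor of the list repressed by Tcf7l1, was -0.22 (adjusted p = 0.0134), although neither gene was called by edgeR in the 6 libraries of either experiment. The fit over all 12 libraries called both in YAP KD (adjusted p = 0.0317 for Sp8 and 0.0248 for Nr5a2), and Sp8 was also called there without CTR KD replicate 2. Sp8 had 1.42 ± 0.181 CPM in CTR KD, 2.01 ± 0.0161 in YAP KD, 1.32 ± 0.115 in CTR OE and 0.954 ± 0.145 in YAP OE.

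The call held under all alternatives and without each library for Wls and Wnt7b. For Porcn, Lgr4, Gpc3, Tle4, Tnfrsf19, Ascl2 and Sp8 it was lost on both TPM scales (2 of 10 alternatives), and for Nr5a2 in 3 of 10 alternatives, and for these 8 genes it held without each library. It was lost in 3 of 10 alternatives and without 5 of 12 libraries for Lef1, in 4 of 10 alternatives and without 8 of 12 libraries for Wnt4, and in 2 of 10 alternatives and without 7 of 12 libraries for Fzd10. The difference of Cdx2 lay between 1.63 and 2.48 with a library left out, and no call is drawn from it.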

How the results depend on the processing

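The direction of Notum in YAP KD was kept in every alternative (log2 fold change 0.34 to 0.43) and without each library (0.38 to 0.52). Its call was lost on log2(TPM + 1) (0.34, adjusted p = 0.368) and log2(TPM + 0.1) (0.41, adjusted p = 0.336). The log2 fold change of Notum in YAP OE lay between -0.57 and -0.40 over the alternatives and between -0.64 and -0.50 with a library left out. Feedback genes called in YAP KD were 1 in the reported fit, 2 (adding Lef1) without a filter, with DESeq2 and over all 12 libraries, 0 on both TPM scales, and 0 to 2 when a library was left out. In YAP OE, 0 of the feedback genes other than Notum, which was not tested there, were called in the fits run. Pathway genes called in YAP KD were 1 (Wls) on both TPM scales and 16 over all 12 libraries, and 4 (without YAP KD replicate 2) to 13 (without CTR KD replicate 2) with a library left out. In YAP OE they were 8 without a filter, 1 (Cdx2) on both TPM scales, and 3 to 7 with a library left out. Of all genes, 802 were called in YAP KD, 74 and 47 on log2(TPM + 1) and log2(TPM + 0.1), 1261 over all 12 libraries, and from 298 with CTR KD replicate 3 left out to 1019 with CTR KD replicate 2 left out. In YAP OE, 316 were called, 556 without a filter, 87 and 68 on the TPM scales, and 154 (without CTR OE replicate 3) to 327 (without YAP OE replicate 1). The share of calls that were up in YAP OE was 77.8%, 93.1% and 94.1% on the TPM scales, and 68.2% without a filter. The responses differed for 1325 genes, for 139 and 123 on the TPM scales, and for 943 to 1490 with a library left out. The cause of these changes was not tested.

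The labels give a replicate number, and whether same-numbered libraries were prepared together is not stated in the sources used here. The study describes paired samples for its Student's t tests. Deviations from the group means correlated between same-numbered libraries at -0.257, -0.0693 and -0.0179 in the knockdown and 0.0233, 0.0577 and 0.0773 in the overexpression. With 3 libraries per group these values cannot decide whether the samples were paired. With the replicate number as a block, Notum in YAP KD had 0.43 (adjusted p = 0.0588), 193 genes, 0 feedback genes and 2 pathway genes (Wls and Id2) were called in YAP KD, 280 genes and 5 pathway genes in YAP OE, and the responses differed for 784 genes. At between 6 and 25 counts in a library, the depth limits Rnf43 and Dkk1, and p-values measure the spread between these 3 libraries per group.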
